A study of Mus musculus with 37 samples.

Results

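Of the 24 libraries in which mouse splenocytes were grown with macrophages, 5 carried far more SNORD3A reads than the rest. They were chosen by that readout, SNORD3A counts above 200 CPM (counts scaled to a common library size) of the library's total, for the ID beginning ENSG00000263934, and are called the high libraries here. The other 19 co-culture libraries form the comparison, and the series holds 37 libraries in all. The working description of these libraries was a stress state. It could not be checked against chaperone, stress response or cell type marker genes, because the table gives human Ensembl IDs without gene symbols and no table used here pairs them. The libraries are therefore described by their rule and by leading IDs.

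SNORD3A encodes a U3 small nucleolar RNA, which works in the nucleolus and takes part in the early cleavages of the ribosomal RNA precursor. Mature U3 carries no poly(A) tail, while the library kit starts reverse transcription from poly(A) with oligo-dT primers. RAW264.7 is a mouse macrophage-like line, and SPP1 (osteopontin) is a secreted glycoprotein that binds CD44 and integrins. Splenocytes are a mixture of lymphocytes and other spleen cells. A difference between bulk libraries can thus reflect fewer cells of a type or less RNA per cell, and these cannot be told apart here. The co-culture libraries may also hold RNA of the RAW264.7 cells collected with the splenocytes, and its share was not tested.

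The experiment asked how macrophages primed with SPP1 or low oxygen act on naive splenocytes. RAW264.7 cells were held for 72 h at 21% O2 (normoxia) or 1% O2 (hypoxia), with SPP1 at 1 µg/mL or without it, and WT splenocytes from FVB mice were then added for 48 h. In the washed cultures the macrophages were washed free of their medium before the splenocytes were added, and in the unwashed cultures they were not. Wash, oxygen and SPP1 give 8 label groups of 3 libraries. A further 11 libraries came from splenocytes given only the medium of such macrophages, and 2 from naive splenocytes. All cultures received brefeldin A, a blocker of protein transport out of the endoplasmic reticulum, after the culture period. The age of the mice is not given in the sources used here, RAW264.7 is a single line, and the sources state that experiments were independently repeated but do not say which libraries come from which repeat or animal. All p-values below treat these libraries as the units, and those of edgeR judge differences against the spread between libraries. How much of that spread is technical is not known.

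Total counts ran from 691539 to 1055277 in the high libraries (median 962194) and from 818419 to 1337314 in the other 19 (median 1163766). The number of IDs with a count was 7102 to 9132 in the high libraries and 8388 to 10295 in the others. The 10 most abundant IDs took 19.2 to 24.4% of the counts in the high libraries and 18.6 to 24.0% in the others. Lower depth therefore moved with membership, and its part in the results was not tested. The mouse reads were aligned to the human genome, so an ID collects the mouse reads that matched that human gene well enough, and levels are compared between libraries only.

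SNORD3A had 832 counts (864.69 CPM) in washed normoxia SPP1 replicate 2 and 861 counts (815.90 CPM) in washed hypoxia no-SPP1 replicate 2. It had 418 counts (604.45 CPM) in washed normoxia SPP1 replicate 1 and 406 counts (533.11 CPM) in washed hypoxia SPP1 replicate 1. The fifth high library, unwashed hypoxia no-SPP1 replicate 2, had 376 counts (383.84 CPM) and lay nearest to the threshold from above. Just outside it was washed normoxia no-SPP1 replicate 3 with 31 counts (28.58 CPM). The other 19 libraries ran from 10.54 to 28.58 CPM with a median of 19.04. The 11 medium libraries held 2.02 to 17.3 CPM, and the naive libraries 41.3 and 101.3 CPM. No co-culture library fell between the groups, and these values only describe the choice.

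**Figure D1:**
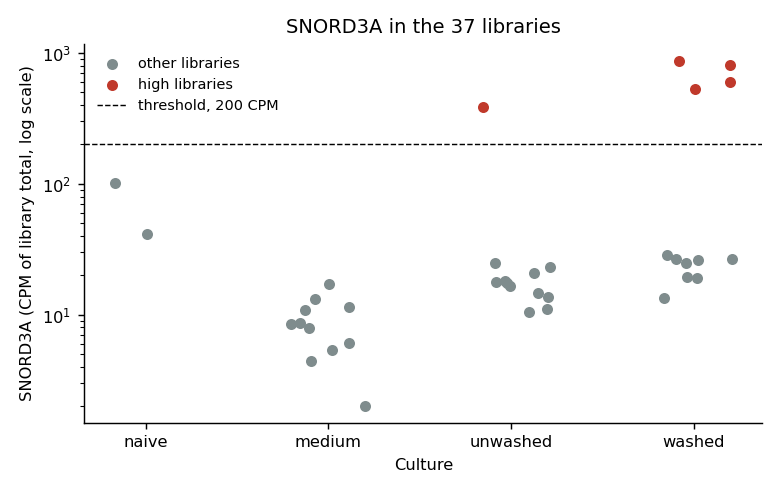
SNORD3A in CPM of the library total (log scale) in each of the 37 libraries, by culture; red points are the 5 high libraries, grey points the others, and the dashed line is the 200 CPM threshold. The high libraries sit between 383.84 and 864.69 CPM, and no other co-culture library exceeds 28.58 CPM.

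High libraries occurred at both levels of wash, SPP1 and oxygen, and under 2 of the 3 replicate numbers. Of the 12 washed libraries 4 were high, against 1 of the 12 unwashed (two-sided Fisher's exact test, p = 0.3168, adjusted p = 0.6335 over 4 labels). SPP1 libraries held 3 high of 12 and no-SPP1 libraries 2 of 12 (Fisher's exact test, p = 1). Hypoxia held 3 of 12 and normoxia 2 of 12 (Fisher's exact test, p = 1). Replicate number 1 held 2 of 8, number 2 held 3 of 8 and number 3 held 0 of 8 (Fisher's exact test, p = 0.3043, adjusted p = 0.6335). With 5 high libraries these tests have little reach, and a p above the threshold does not show that the labels were equal. Within the 4 label groups that held a high library, 1 or 2 of the 3 libraries were high, so libraries of the same treatment fell on both sides.

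The high libraries differed from the others well beyond SNORD3A. Of 4341 IDs with enough counts, 146 (3.36%) were higher in every high library than in every other co-culture library, and 104 (2.4%) were lower in every one. With wash mode in the model, 480 IDs (11.1%) were at least 2-fold higher in the high libraries and 399 (9.19%) at least 2-fold lower. The groups were split on a readout of these same libraries, so the counts are a description and carry no test. The median log2 difference was -0.0087 over all 4341 IDs, 1.54 over the 146 (0.43 to 5.80) and -1.36 over the 104 (-3.33 to -0.43). Of these, 118 of the 146 and 75 of the 104 also differed at least 2-fold. At least 4-fold differences were seen for 81 IDs upward and 56 downward. The filter on counts included the high libraries, so an ID seen mainly in them, or mainly in the others, could pass through that set alone. How many did was not counted, and this bears on all these counts and on their balance. Of the 146, 103 had a mean log2 CPM of at least 5, with a median log2 difference of 1.29. Of the 104, 86 did, with a median of -1.25.

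The balance of the directions rested on the scaling. These values use TMM, a factor per library that centres most IDs on each other, and the TMM factors were 0.7964 to 0.9154 in the high libraries and 0.8451 to 1.085 in the others. With scaling to the library total alone the median over all IDs moved to -0.161, and 88 IDs lay above and 131 below, so that 40.2% of the non-overlapping IDs were higher in place of 58.4%. The IDs at least 2-fold apart then split into 364 higher and 539 lower. The 4 IDs named next kept their directions under TMM, RLE and library total scaling, and their CPM values are scaled by TMM.

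ENSG00000080824.19 was the ID with the largest higher difference among abundant, non-overlapping IDs. It had 56590 CPM in washed normoxia SPP1 replicate 1, 44910 in washed hypoxia SPP1 replicate 1, 29350 in washed normoxia SPP1 replicate 2, 28450 in unwashed hypoxia no-SPP1 replicate 2 and 12080 in washed hypoxia no-SPP1 replicate 2. In the other 19 libraries it ran from 1802 to 8710 CPM with a median of 2260. Every high library thus exceeded every other one. The means were 34280 ± 17040 CPM (SD, n = 5) and 3519 ± 2230 CPM (SD, n = 19), a ratio of 9.74 and a wash-adjusted log2 difference of 3.03. Among the others, the washed libraries (2260 to 8710 CPM) overlapped the unwashed ones (1802 to 2449 CPM) only at their low end. This single ID took 1.106 to 4.698% of all counts in the high libraries and 0.1822 to 0.816% in the others.

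ENSG00000210082.2 showed a wider spread among the high libraries. It had 7840 CPM in washed normoxia SPP1 replicate 1, followed by 6605 in washed hypoxia SPP1 replicate 1. The remaining high libraries were lower, with 1703 CPM in unwashed hypoxia no-SPP1 replicate 2, 1496 in washed normoxia SPP1 replicate 2 and 665.7 in washed hypoxia no-SPP1 replicate 2. The other 19 libraries held 282.7 to 534.9 CPM with a median of 441. The groups did not overlap, and both libraries numbered replicate 1 were the highest. The means were 3662 ± 3302 CPM (SD, n = 5) and 436 ± 66.06 CPM (SD, n = 19), a ratio of 8.4 and a log2 difference of 2.99.

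ENSG00000124766.7 had the largest lower difference among the non-overlapping IDs with a mean log2 CPM of at least 5. It had 5.226 CPM in washed normoxia SPP1 replicate 1, 5.942 in unwashed hypoxia no-SPP1 replicate 2, 6.996 in washed normoxia SPP1 replicate 2, 18.14 in washed hypoxia SPP1 replicate 1 and 38.3 in washed hypoxia no-SPP1 replicate 2. These values rest on 3 to 37 counts. The other 19 libraries ran from 49.09 to 123.6 CPM with a median of 67.65, all above the high libraries. The mean was 4.98 times higher in the others, 74.28 ± 22.69 CPM (SD, n = 19) against 14.92 ± 14.09 CPM (SD, n = 5), and the log2 difference was -2.35.

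ENSG00000114315.4 had 12.19 CPM in washed normoxia SPP1 replicate 1, 13.19 in washed hypoxia SPP1 replicate 1, 20.99 in washed normoxia SPP1 replicate 2, 70.12 in unwashed hypoxia no-SPP1 replicate 2 and 81.78 in washed hypoxia no-SPP1 replicate 2. In the other libraries it ran from 123 to 457.8 CPM with a median of 223.2, and again no library overlapped. The mean was 6.96 times higher in the others, 276 ± 116 CPM (SD, n = 19) against 39.65 ± 33.56 CPM (SD, n = 5), and the log2 difference was -2.33. Beyond these 4 IDs, the next 13 higher IDs by the same ranking had log2 differences of 2.01 to 2.72, and the next 8 lower ones -2.31 to -2.06.

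**Figure D2:**
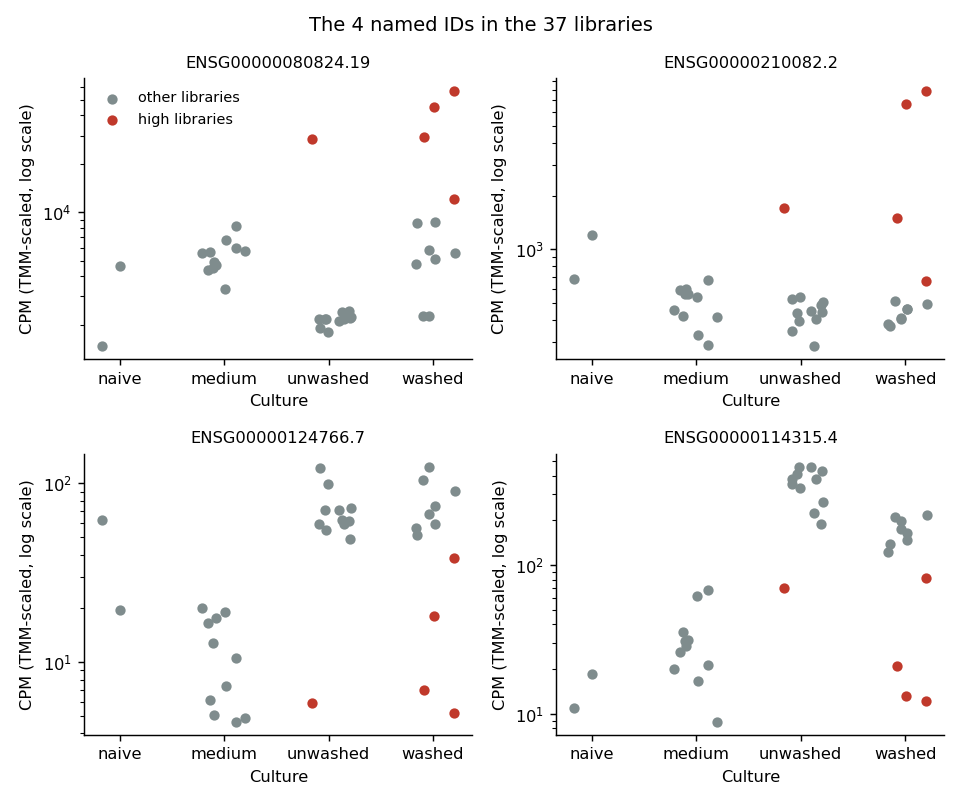
CPM scaled by TMM (log scale) of 4 IDs in each of the 37 libraries, by culture; red points are the 5 high libraries and grey points the others. For the upper pair every high library lies above every other co-culture library, and for the lower pair below it, among the medium values or close to them.

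The same 4 IDs were read in the medium and naive libraries, which the rule did not use. ENSG00000124766.7 held 4.633 to 20 CPM in the 11 medium libraries and ENSG00000114315.4 held 8.813 to 68.03 CPM, so both ranges overlapped those of the high libraries and lay below all 19 other co-culture libraries. The highest ENSG00000114315.4 values in medium, 68.03 and 62.02 CPM, came from medium normoxia no-SPP1 replicate 3 and medium hypoxia no-SPP1 replicate 1, and the remaining 9 held at most 35.31 CPM. In the naive libraries ENSG00000114315.4 held 18.65 and 10.88 CPM, at the low end of the high libraries, and ENSG00000124766.7 held 19.63 and 62.59 CPM, the second inside the range of the other co-culture libraries. ENSG00000080824.19 held 3324 to 8202 CPM in medium, below every high library and inside the range of the others, and the naive libraries held 4664 and 1469 CPM. ENSG00000210082.2 held 288.2 to 673.9 CPM in medium, and the naive libraries held 683 and 1203 CPM. The highest medium value and both naive values thus exceeded the lowest high library, at 665.7 CPM. For most of the lower IDs the medium libraries did not stand apart. All 11 lay below all 19 other co-culture libraries for 7 of the 104 (6.73%), and for 82 of all 4341 IDs (1.89%). Medium and high ranges overlapped for 47 of the 104 (45.2%), for 40 of the 146 (27.4%) and for 3530 of all IDs (81.3%), and the choice of non-overlapping IDs bears on these shares.

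Counted together, the 146 higher IDs took 15.51% of the counts in washed normoxia SPP1 replicate 1, 13.64% in washed normoxia SPP1 replicate 2, 12.41% in washed hypoxia SPP1 replicate 1, 8.946% in unwashed hypoxia no-SPP1 replicate 2 and 8.652% in washed hypoxia no-SPP1 replicate 2. They took 3.665 to 5.385% in the other 19. Without ENSG00000080824.19 the shares were 6.502 to 11.02% and 3.483 to 4.682%. The 104 lower IDs took 1.158 to 2.509% in the high libraries and 3.661 to 5.304% in the others. Medium libraries held 4.074 to 5.589% for the 146 and 3.963 to 6.569% for the 104, and the naive libraries 5.598 and 6.059% for the 146. The medium libraries thus lay near the other co-culture libraries on both measures.

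**Figure D3:**
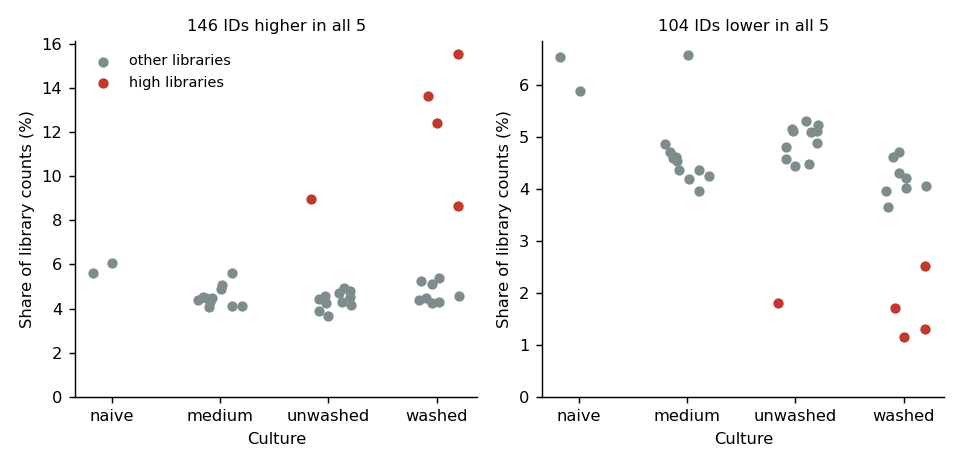
Share of each library's counts (%) held by the 146 IDs that were higher in all 5 high libraries (left) and the 104 that were lower (right), by culture, in all 37 libraries. The high libraries (red) lie at 8.652 to 15.51% on the left and 1.158 to 2.509% on the right, apart from all grey points. Against the other co-culture libraries this gap follows from how the IDs were chosen, and medium and naive libraries were not used in that choice.

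The 5 libraries did not depart from their neighbours to the same degree. Each was set against the mean of the other libraries of its wash mode that were not high, over 1529 abundant IDs. Washed normoxia SPP1 replicate 2 had 208 IDs at least 2-fold higher and 140 lower. Washed normoxia SPP1 replicate 1 had 172 higher and 237 lower. The washed library after hypoxia with SPP1, replicate 1, had 104 higher and 275 lower, and unwashed hypoxia no-SPP1 replicate 2 had 104 higher and 223 lower. Washed hypoxia no-SPP1 replicate 2, which had the second highest SNORD3A level, departed least, with 56 higher and 39 lower. The other 19 libraries had 0 to 32 higher (median 2) and 1 to 39 lower (median 6). The largest of these was unwashed hypoxia no-SPP1 replicate 3, with 32 higher and 39 lower, which in its lower count equalled the least departing high library. The typical departure, the median absolute log2 value, was 0.323 to 0.576 in the high libraries and 0.141 to 0.339 in the others, and these ranges overlapped.

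**Figure D4:**
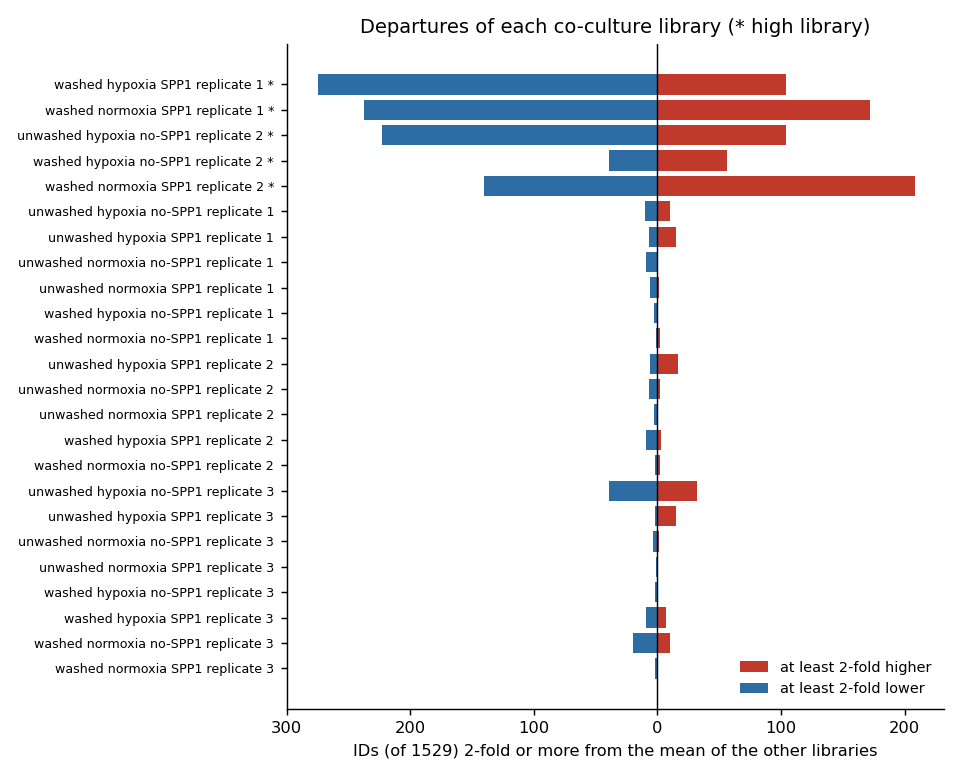
Number of IDs, of 1529, at least 2-fold higher (red, right) or at least 2-fold lower (blue, left) in each of the 24 co-culture libraries than in the mean of the other libraries of the same wash mode that were not high; high libraries are marked with an asterisk. Washed hypoxia no-SPP1 replicate 2 has 56 higher and 39 lower, and the remaining high libraries have 104 to 208 higher and 140 to 275 lower.

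The first principal component over the 24 libraries carried 32.8% of the variance and placed the high libraries at 15.6 to 64.6 and the others at -22.1 to 3.23. Its order was the departure order in part, with 2 washed SPP1 libraries numbered replicate 1 farthest out, the hypoxia one at 64.6 and the normoxia one at 61.5, and washed hypoxia no-SPP1 replicate 2 (15.6) nearest. The second component (13.1%) spread the high libraries from -30.6 to 28.9, with washed hypoxia SPP1 replicate 1 and unwashed hypoxia no-SPP1 replicate 2 at its low end and the remaining 3 at 15 or above. The others ran from -26.8 to 15.3 on it, so it did not part the groups.

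The unwashed high library allowed a reading of IDs chosen without it. In the washed libraries alone, 232 IDs were at least 2-fold higher in the 4 high libraries with no overlap, and 147 were at least 2-fold lower. In unwashed hypoxia no-SPP1 replicate 2, 155 of the 232 (66.8%) lay above all 11 other unwashed libraries, as did 1000 of all 4341 IDs (23%). Of the 147 lower IDs 102 (69.4%) lay below all 11, as did 1114 of all IDs (25.7%). The opposite direction was seen for 4 of the 232 and 2 of the 147. The median log2 departure of this library was 0.821 over the 232, -1.21 over the 147 and 0.0326 over all IDs. This is 1 library, picked by its SNORD3A level, so no test over samples is possible.

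That library resembled the washed high libraries unequally. Across the 1529 IDs its departures correlated with those of washed hypoxia SPP1 replicate 1 at a Pearson r of 0.76 and with washed normoxia SPP1 replicate 1 at 0.59. The values were 0.335 for washed normoxia SPP1 replicate 2 and 0.238 for washed hypoxia no-SPP1 replicate 2. These are descriptions across IDs of single libraries, whose reference libraries are separate. Of its 104 higher IDs 48 (46.2%) were also at least 2-fold higher in washed hypoxia SPP1 replicate 1, which is 46.2% of that library's 104, where 6.8% of all 1529 IDs were higher in it. Of its 223 lower IDs 153 (68.6%) were shared, 55.6% of the 275, where 18% of all IDs were lower. With washed hypoxia no-SPP1 replicate 2 it shared 19 higher IDs (18.3% of its own, 33.9% of the other's 56) and 14 lower ones (6.28% of its own, 35.9% of the other's 39), where 3.66% and 2.55% of all IDs were higher and lower. The lists differ in length, so the shares are not ranked.

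Medium and naive libraries gave a labelled comparison with no co-culture library in the fit. Its IDs had first passed the filter on the co-culture libraries, and its scaling was set over all 37 libraries. The shares over all IDs thus cover only IDs with enough counts in co-culture. Medium minus naive was tested with edgeR on 4011 IDs, of which 874 (21.8%) were higher and 777 (19.4%) lower in medium at an adjusted p under 0.05. Of the 146 IDs that were higher in the high libraries 136 could be tested, and 62 (45.6%) were lower and 7 (5.15%) higher in medium than in naive splenocytes, with a median log2 fold change of -0.609 against 0.117 over all IDs. Without naive replicate 2 the 62 became 37, the 7 became 1, and for the lower IDs below the counts became 19 and 3. Without naive replicate 1 the 62 became 45, and without the 2 medium libraries that stood apart from the rest it became 70. Of the 104 lower IDs 102 could be tested, and 33 (32.4%) were lower and 11 (10.8%) higher in medium, with a median of -0.287. Both lists thus held more IDs falling in medium than rising. For the fits with libraries left out no share over all IDs was taken, so whether the lists moved more than other IDs is not known. Those that drop a naive library also rest on a single naive sample.

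Of the named IDs, ENSG00000210082.2 fell by 0.95 on the log2 scale in medium relative to naive splenocytes (SE 0.259, edgeR adjusted p = 0.0083545). ENSG00000124766.7 fell by 1.90 (SE 0.475, edgeR adjusted p = 0.0048784). ENSG00000080824.19 rose by 0.84 (SE 0.316, edgeR adjusted p = 0.041247), with 3324 to 8202 CPM in medium against 1469 and 4664 CPM in the naive libraries. ENSG00000114315.4 was 1.06 higher in medium without passing the test (SE 0.564, edgeR adjusted p = 0.14383). With 2 naive libraries, of which replicate 2 had less ENSG00000080824.19 and more ENSG00000124766.7 than replicate 1, these values lean on few samples.

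Within the medium libraries the named IDs were set against SNORD3A, which there had 2 to 12 counts in 9 libraries. Medium normoxia no-SPP1 replicate 3 (-38.5) and, after hypoxia, medium no-SPP1 replicate 1 (-36.6) stood apart from the remaining 9 (-2.05 to 19.1) on the first principal component and were left out. The hypoxia one held 20 counts of SNORD3A, the most of any medium library, so its absence narrowed the range. No correlation was taken over all 11 medium libraries. Of 4 relations over 9 libraries none passed after adjustment. ENSG00000114315.4 had the closest relation, a Pearson r of 0.719 (permutation p = 0.0279, adjusted 0.112) and a Spearman rho of 0.533 (permutation p = 0.145, adjusted 0.581), with r at 0.549 without the 2 libraries farthest from the median. ENSG00000124766.7 had an r of 0.452 (permutation p = 0.223, adjusted 0.447) and ENSG00000080824.19 an r of -0.24 (permutation p = 0.537, adjusted 0.716). ENSG00000210082.2 had an r of -0.00405 (permutation p = 0.993, adjusted 0.993). The signs for ENSG00000114315.4, ENSG00000124766.7 and ENSG00000080824.19 were opposite to their differences between high and other co-culture libraries. Since none of these relations passed, no direction is read from the signs. For ENSG00000124766.7, ENSG00000080824.19 and ENSG00000210082.2 in turn, the Spearman values were 0.317, -0.117 and -0.167 (permutation p = 0.409, 0.775 and 0.68, adjusted 0.775 for each). Without the 2 farthest libraries their r values were 0.00326, -0.31 and 0.115. With 2 to 12 counts of SNORD3A, counting error limits what such a relation can show.

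The labelled comparisons of the study were fitted with and without the high libraries. For washed minus unwashed macrophages, edgeR called 310 IDs with all 24 libraries, 206 higher (4.75%) and 104 lower (2.4%). With the 19 others it called 423, 232 higher and 191 lower, of which 199 were among the 310, so 111 calls were lost and others gained. Leaving out only the 4 washed high libraries gave 98 calls, and leaving out only unwashed hypoxia no-SPP1 replicate 2 gave 605. Since 4 of the 5 high libraries are washed, this comparison is not independent of the choice. Of the 146 higher IDs 35 were called higher in washed with 24 libraries and none lower, at a median log2 fold change of 0.624. With 19 libraries 16 (11%) were called higher and 1 (0.685%) lower, at a median of 0.0608, where 5.34% of all IDs were called higher and 4.4% lower. Of the 104 lower IDs 7 (6.73%) were called lower with 24 libraries and 19 (18.3%) with the 19 others, at medians of -0.409 and -0.2. The medians over all IDs were 0.0278 and -0.00764, and the choice of the IDs bears on the values with 24 libraries and on their shift.

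ENSG00000080824.19 was higher in washed than in unwashed cultures with all 24 libraries, by 1.97 on the log2 scale (SE 0.446, edgeR adjusted p = 0.011256), and without the high libraries by 1.17 (SE 0.141, edgeR adjusted p = 1.7393e-05). ENSG00000114315.4 fell by 1.35 with 24 (SE 0.341, edgeR adjusted p = 0.021261) and by 0.92 without them (SE 0.137, edgeR adjusted p = 0.00011431). Both thus differed by wash among the libraries that were not high. Those libraries were what remained after a choice by SNORD3A, and these IDs were named for parting them from the high ones. The p-values without the high libraries thus rest on samples chosen by a readout, here and in the SPP1 and hypoxia comparisons below. Such p-values are not those of an unselected comparison. With only the 4 washed high libraries left out, the difference of ENSG00000080824.19 was 0.58 and no longer passed, with the unwashed high library then in the lower arm. ENSG00000210082.2 went from 1.17 (edgeR adjusted p = 0.064205) to 0.014 (edgeR adjusted p = 0.96261). With 1 library left out it passed at 1.33 without unwashed hypoxia no-SPP1 replicate 2, 1.29 without washed hypoxia SPP1 replicate 3, and 1.25 without washed hypoxia SPP1 replicate 2 or washed normoxia SPP1 replicate 3 (edgeR adjusted p = 0.02397, 0.02716, 0.03466 and 0.01821). ENSG00000124766.7 went from -0.19 to 0.19 (edgeR adjusted p = 0.78731 and 0.50977).

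For SPP1 minus no-SPP1 in the washed cultures, where 3 of the 4 washed high libraries carry SPP1, edgeR called 0 IDs (0%) with all libraries and 0 without the high ones. The numbers at an unadjusted p under 0.05 were 433 and 155, and DESeq2 called 2 with all libraries. The median over the 146 IDs was 0.772 with 24 libraries and -0.0633 with 19, and over the 104 it was -0.382 and 0.0407. These IDs were chosen in the high libraries, so taking those libraries out moves the medians towards 0 by construction. ENSG00000210082.2 stood 2.64 higher with SPP1 (SE 0.571, edgeR adjusted p = 0.27796) with all libraries and 0.15 higher without the high ones (SE 0.179, edgeR adjusted p = 0.99978). With all libraries its call depended on the setting, since it passed with DESeq2 (2.65, adjusted p = 0.04797), without the filter on low counts (2.36, edgeR adjusted p = 2.291e-27) and without washed normoxia SPP1 replicate 3 (2.85, edgeR adjusted p = 0.01408). At a similar size the edgeR adjusted p fell from 0.27796 to 2.291e-27 without the filter. Why it fell was not tested, and it is not taken as stronger support. ENSG00000080824.19 went from 1.70 (SE 0.624, edgeR adjusted p = 0.3947) to -0.27 (edgeR adjusted p = 0.99978). Without the high libraries the washed normoxia SPP1 group is a single library, replicate 3, assumed to vary like the other groups.

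For hypoxia minus normoxia in the unwashed cultures, which hold 1 high library, edgeR called 122 IDs with 24 libraries, 95 higher (2.19%) and 27 lower (0.622%). Without the high libraries it called 449, 262 higher and 187 lower, and all 122 were among them. Leaving out only the 4 washed high libraries gave 409 calls, and leaving out only unwashed hypoxia no-SPP1 replicate 2 gave 99. The washed libraries enter this fit through the shared estimate of the spread. None of the 146 or the 104 was called with 24 libraries, against 2 higher (1.37%) and 15 lower (10.3%) of the 146 and 4 higher and 4 lower (3.85% each) of the 104 with 19, where 6.04% of all IDs were higher and 4.31% lower. ENSG00000114315.4 went from -0.79 (edgeR adjusted p = 0.398) to -0.59 (SE 0.165, edgeR adjusted p = 0.022305), and ENSG00000080824.19 from 1.17 (edgeR adjusted p = 0.32918) to -0.0047 (edgeR adjusted p = 0.99119).

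**Figure D5:**
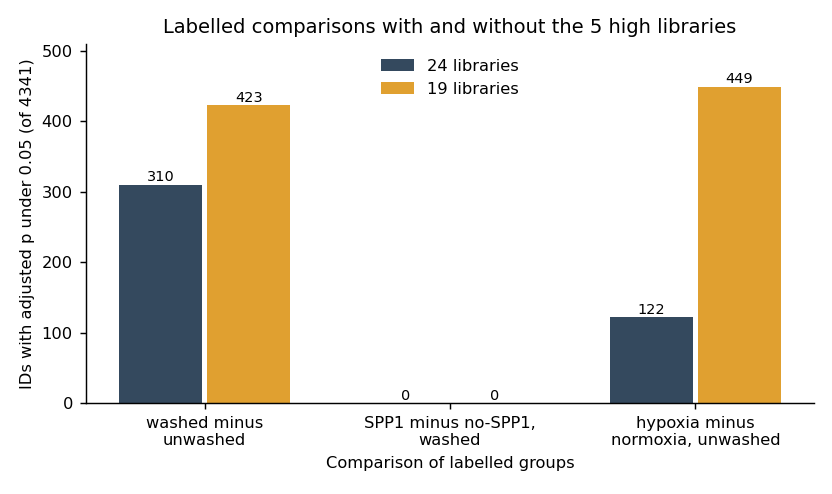
Number of IDs, of 4341, with an edgeR adjusted p under 0.05 in 3 labelled comparisons, fitted with all 24 co-culture libraries (dark bars) and with the 19 that were not high (orange bars). The counts go from 310 to 423 for wash, stay at 0 for SPP1 in washed cultures and go from 122 to 449 for hypoxia in unwashed cultures.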

How the data were processed

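The 37 libraries were made from total RNA with a 3′ mRNA kit and read single-ended. Per the labels and the methods, the authors trimmed reads with bbduk, aligned them to GRCh38 (hg38 in the labels) with STAR 2.7.10b and counted them with featureCounts of Rsubread 2.0.3. The deposited values are raw counts, all whole numbers, for 60708 human Ensembl IDs, of which 22657 had a count. Whether molecular identifiers were collapsed is not given in the sources used here. The samples are mouse, so counts reflect reads that match the human genome. No ID occurs in the mouse gene tables used here, hence gene lists, cell type markers and sequences are not reported, and 2 higher and 2 lower IDs are named by ID only. The labels state a minimum RNA integrity for sequencing and also a range reaching below it, and integrity per library was not analysed here.

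The high libraries were those above 200 CPM of the library total for SNORD3A, which was left out of every fit. The members, the ID lists and the tests were chosen with earlier results of these data known. Groups came from the labels. IDs passed edgeR's filterByExpr (minimum count 10) on the 24 co-culture libraries, leaving 4341 with 98.65 to 99.14% of the counts. The high libraries were part of that filter, so an ID could pass through them alone. CPM values were scaled by TMM over all 37 libraries. The difference between high and other libraries is the coefficient of edgeR 4.0.16 (R 4.3.3) with wash mode as covariate, given without a test. Named IDs have the largest differences among non-overlapping IDs with a mean log2 CPM of at least 5. Labelled comparisons used the edgeR quasi-likelihood test over all 8 label groups, with Benjamini-Hochberg adjustment and a threshold of 0.05. Log2 values for departures, components and correlations used a prior count of 2. Departures used IDs with a mean log2 CPM of at least 6. Alternatives included RLE and library total scaling, no filter, DESeq2 1.42.0, other thresholds and leaving out each library. Further ones (leaving out the 4 high washed libraries, and the medium and naive alternatives) were added after seeing the data. The code was tested on simulated data. A count of 3 corresponds to 2.84 to 4.34 CPM in the high libraries and 2.24 to 3.67 CPM in the others, for counting error only. No 2 libraries of a group agreed within sampling noise (chi-square per degree of freedom 2.782 to 42.946 over 35 pairs).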

Additional observations from a re-analysis of the deposited data

Results flagged for a closer look

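Named IDs were examined in 16 arms of 6 co-culture libraries for a single library lying far from the others (Dixon's test, critical value 0.625 of the range), and 3 such values were found. In the unwashed hypoxia arm ENSG00000080824.19 stood at 28450 CPM in unwashed hypoxia no-SPP1 replicate 2, with the next library at 2449 CPM, a gap of 0.976 of the range. In the same arm ENSG00000210082.2 stood at 1703 CPM in that library, with the next at 534.9 CPM, a gap of 0.822. In the washed no-SPP1 arm ENSG00000210082.2 stood at 665.7 CPM in washed hypoxia no-SPP1 replicate 2, with the next at 461.3 CPM, a gap of 0.689. All 3 values belong to high libraries. Such a test marks about 1 in 20 arms by chance where values were not chosen, but these IDs were named for being higher in the high libraries, so the 3 values restate that choice and are not set against that rate.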

How the results depend on the processing

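Of 740 alternative values none reversed a called direction, and 687 kept their side of the threshold or stayed within the set margin. The log2 difference between high and other libraries was 2.70 to 3.24 for ENSG00000080824.19, 2.53 to 3.25 for ENSG00000210082.2, -3.14 to -2.12 for ENSG00000124766.7 and -2.95 to -2.14 for ENSG00000114315.4. The 146 IDs became 88 with library total scaling and 318 in washed libraries only, and 117 to 245 with 1 library left out, highest without unwashed hypoxia no-SPP1 replicate 2. The 104 became 227 in washed libraries only and 48 at a threshold of 400 CPM, which drops the unwashed high library, and 100 to 258 with 1 library left out, highest without washed hypoxia no-SPP1 replicate 2. IDs at least 2-fold apart numbered 3952 higher and 3512 lower without the filter, where 20440 IDs enter in place of 4341. With 1 library left out and the filter kept, they numbered 415 to 531 and 339 to 591. DESeq2 called 481 IDs for wash, 2 for SPP1 in washed and 238 for hypoxia in unwashed cultures. SPP1 had 35 calls of 20440 IDs without the filter and 0 to 89 of 4341 with 1 library left out, 89 without washed normoxia SPP1 replicate 3. Hypoxia had 449 calls in the 19 libraries, 409 without the 4 high washed libraries, and 69 to 240 with 1 left out, lowest without unwashed normoxia SPP1 replicate 1 and highest without unwashed hypoxia no-SPP1 replicate 1. Wash had 98 calls without the 4 high washed libraries and 135 to 672 with 1 left out, lowest without washed hypoxia no-SPP1 replicate 2 and highest without washed normoxia SPP1 replicate 3. Leaving out 1 naive library gave 37 to 45 and 1 to 9 of the 146 IDs lower and higher in medium, and 19 to 29 and 3 to 7 of the 104. Without the 4 high washed libraries the wash difference of ENSG00000080824.19 was 0.58 and no longer passed. Without the filter ENSG00000210082.2 passed for wash (1.04), ENSG00000080824.19 for SPP1 (1.44) and hypoxia (1.12) and ENSG00000114315.4 for hypoxia (-0.81), the last also without the 4 high washed libraries (-0.79). ENSG00000114315.4 passed for SPP1 (-1.76) without washed normoxia SPP1 replicate 3. The cause of these changes was not tested. For the passes without the filter the adjusted p-values fell steeply at similar sizes, so they are not taken as stronger support. The counts with 1 naive library left out have no share over all IDs beside them. The check whether replicate numbers pair the libraries could not decide it, since the deviations include those of the high libraries. Correlations of deviations for wash were -0.188, 0.0962 and 0.363 for replicate numbers 1, 2 and 3. Number 3 holds no high library, but its deviations are taken from group means that include high libraries. For SPP1 in washed cultures the correlations were -0.223, 0.179 and 0.0749, and for hypoxia in unwashed cultures 0.0593, 0.0176 and 0.0651. With a replicate block the calls were 324 for wash, 0 for SPP1 and 141 for hypoxia. With that block 477 and 406 IDs were at least 2-fold higher and lower in the high libraries. Depth limits low IDs such as ENSG00000124766.7, whose high libraries held 3 to 37 counts.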
